A study of Rattus norvegicus with 9 samples.

Results

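The genes described here are 10 Wnt modulators of rat cells, namely Sfrp1, Sfrp2, Sfrp4, Frzb, Dkk2, Dkk3 and Wif1, whose products are secreted, and Nkd1, Nkd2 and Axin2, whose products act inside the cell. They were found by symbol in a table of 26401 genes, and all 10 had a row. The set was chosen from measured values of these libraries, in which several of its genes differed between growth factor and control columns. Their levels and differences are therefore given as a description, with the standard error of the fit and without a test of their own.

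The cells, named S31, were primary smooth muscle cells of the small heart vessels of male Wistar Kyoto rats. All cells were held for 48 h without serum. They then received a growth factor at 25 ng/ml or, in the control set, serum-free medium with lactalbumin hydrolysate. There were 9 libraries in 3 sets of 3, named by their columns as PDGF-NS, IGF-NS and control (LH-NS). The columns and the sample records disagree on the agent. The records that name the PDGF-NS columns are titled IGF-1 with harvest at 24 h, and the records that name the IGF-NS columns are titled PDGF-BB with harvest at 48 h. The control records give 24 h. The sets are called by their columns below, and which growth factor each received cannot be settled from these labels. By record the IGF-NS set was also harvested later than both others, and no control of 48 h was used here, so agent and time cannot be told apart in it. The labels do not say whether the 3 libraries of a set came from separate cultures. The p-values below then measure the spread between these libraries, which may be technical.

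Wnt ligands bind Frizzled receptors and the co-receptors Lrp5 and Lrp6 on the receiving cell. In the canonical branch this stops the breakdown of beta-catenin, which then acts with TCF and LEF factors on target genes. Secreted frizzled-related proteins (sFRPs) and Wif1 bind the ligands outside the cell, and Dickkopf proteins such as Dkk2 act on the co-receptors. Nkd1 and Nkd2 bind Dishevelled inside the cell, and Axin2 is a scaffold of the complex that degrades beta-catenin. Axin2 and Nkd1 are also targets of the canonical branch in many tissues, so that they form a negative feedback.

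Upstream sequence shows that the intracellular members differ in their promoter letters. The sequences below are RefSeq promoters of build GRCr8, each from 250 bases before to 50 bases after the gene start and written along the gene's strand. A window was at hand for 6 of the 10 genes (Sfrp2, Frzb, Wif1, Nkd1, Nkd2 and Axin2). Both strands were searched for CTTTGAT and CTTTGAA, the core letters bound by TCF and LEF factors, which do not overlap each other here. Capitals mark a match. The intracellular members are printed because their levels differ most from each other, and Sfrp2 because its level differed most between sets among the secreted ones with a window. Axin2 lies at chr10:94398535-94398834 (plus strand), Nkd1 at chr19:34722797-34723096 (minus strand), Nkd2 at chr1:31272282-31272581 (plus strand) and Sfrp2 at chr2:171387286-171387585 (plus strand).
Axin2: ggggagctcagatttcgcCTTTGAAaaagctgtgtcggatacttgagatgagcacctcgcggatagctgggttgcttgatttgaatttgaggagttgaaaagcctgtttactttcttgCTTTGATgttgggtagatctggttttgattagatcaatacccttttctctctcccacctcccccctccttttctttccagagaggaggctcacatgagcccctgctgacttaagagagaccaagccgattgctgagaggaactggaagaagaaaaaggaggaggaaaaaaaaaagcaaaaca
Nkd1: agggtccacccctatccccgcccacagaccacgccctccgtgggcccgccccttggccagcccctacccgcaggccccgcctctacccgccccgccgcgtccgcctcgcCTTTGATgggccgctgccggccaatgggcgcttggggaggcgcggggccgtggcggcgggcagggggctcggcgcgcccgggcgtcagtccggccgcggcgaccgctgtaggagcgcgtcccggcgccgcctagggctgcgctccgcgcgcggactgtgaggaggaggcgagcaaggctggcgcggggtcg
Nkd2: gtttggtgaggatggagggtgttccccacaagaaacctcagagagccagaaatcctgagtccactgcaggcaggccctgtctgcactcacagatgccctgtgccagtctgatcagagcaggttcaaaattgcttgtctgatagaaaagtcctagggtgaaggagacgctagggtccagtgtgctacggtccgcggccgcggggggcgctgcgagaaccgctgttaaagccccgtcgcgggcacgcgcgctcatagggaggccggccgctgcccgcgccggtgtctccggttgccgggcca
Sfrp2: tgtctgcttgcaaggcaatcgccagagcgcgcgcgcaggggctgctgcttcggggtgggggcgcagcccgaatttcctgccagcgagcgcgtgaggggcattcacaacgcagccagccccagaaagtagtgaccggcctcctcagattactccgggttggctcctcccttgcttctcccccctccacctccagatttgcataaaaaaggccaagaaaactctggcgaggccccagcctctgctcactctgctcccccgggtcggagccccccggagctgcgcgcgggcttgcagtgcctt
The Axin2 window held 2 matches, CTTTGAA from base -232 and CTTTGAT from base -132 relative to the start. The Nkd1 window held 1 match, CTTTGAT from base -141. The windows of Nkd2, Sfrp2, Frzb and Wif1 held none of these letters. Of all 33469 rat promoters of that length, 8.73% held at least 1 match and 0.571% held 2 or more. A match is a description of the letters and not a site of binding, and the letters were chosen after the windows had been read.

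Levels are in FPKM, fragments per kilobase of transcript scaled to library size, as the authors deposited them. They are per length, so genes can be set side by side roughly, but a small difference between genes may not be one of transcript level. Differences are on the log2(FPKM + 1) scale, which understates the change of low genes. A gene was tested when its mean over the 9 libraries was at least 1 FPKM, which left 11376 genes. Of the 10 modulators 6 passed this filter (Sfrp2, Sfrp4, Frzb, Wif1, Dkk3 and Nkd2). Dkk3 passed only through the PDGF-NS set. Nkd1, Axin2 and Sfrp1 lay under the filter, and Dkk2 was listed at 0 in all 9 libraries. The sums of FPKM over all genes were 687686 to 748000 in PDGF-NS, 616765 to 675008 in IGF-NS and 632930 to 655517 in control. The genes that reached 1 FPKM were 11265 to 11348 in PDGF-NS, 11209 to 11304 in IGF-NS and 11047 to 11140 in control. The PDGF-NS sums thus lay above all others and the control gene counts below all others, so the libraries were not evenly scaled between sets. Correlations of log2 values were 0.959 to 0.983 within a set and 0.901 to 0.947 between sets. The reads behind a value are unknown.

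The sFRP family differed by set and by member. Sfrp2 was high in the IGF-NS columns only, at about 10 times its level in either other set. Sfrp4 and Frzb stood highest in IGF-NS, between in PDGF-NS and lowest in control. Sfrp1 was near or at 0 throughout. Which sFRP had the highest FPKM also differed, Sfrp4 in PDGF-NS and Sfrp2 in IGF-NS. In control Sfrp4 stood only narrowly above Sfrp2, at 4.52 ± 1.18 against 3.94 ± 1.24 FPKM (mean ± SD, n = 3).

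Sfrp2 (ENSRNOG00000009465) encodes a secreted decoy for Wnt ligands that is made by many mesenchymal cells. It had 5.98, 2.92 and 3.50 FPKM in the PDGF-NS libraries, 40.9, 33.8 and 42.1 FPKM in the IGF-NS libraries, and 4.78, 4.52 and 2.52 FPKM in the control libraries. All 3 IGF-NS libraries lay above the other 6, and the PDGF-NS and control libraries overlapped. The IGF-NS mean of 38.9 ± 4.50 FPKM was 9.88 times the control mean of 3.94 ± 1.24 FPKM (SD, n = 3 each), a log2 difference of 3.04 ± 0.25 (SE). The PDGF-NS mean of 4.13 ± 1.63 FPKM was 0.106 times the IGF-NS mean (log2 difference -3.00 ± 0.25), and it was 1.05 times the control mean (log2 difference 0.04 ± 0.25). The last difference was smaller than its error and had no stable sign, at -0.20 without PDGF-NS library 1 and 0.22 without PDGF-NS library 2. Among all tested genes, 78.0% lay below Sfrp2 in the IGF-NS columns, against 20.1% in PDGF-NS and 21.9% in control.

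Sfrp4 (ENSRNOG00000018893), a member of the same family that carries the frizzled-like cysteine-rich domain, had 15.8, 11.8 and 11.6 FPKM in PDGF-NS, 24.3, 29.0 and 27.4 FPKM in IGF-NS, and 5.35, 5.04 and 3.17 FPKM in control. The 3 sets did not overlap. PDGF-NS averaged 13.1 ± 2.39 FPKM, IGF-NS 26.9 ± 2.41 FPKM and control 4.52 ± 1.18 FPKM (SD, n = 3 each). The log2 difference was 1.36 ± 0.19 in PDGF-NS against control, 2.36 ± 0.19 in IGF-NS against control and -0.998 ± 0.19 in PDGF-NS against IGF-NS.

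Frzb (ENSRNOG00000007765), also called Sfrp3 and first known from cartilage, had 6.85, 2.93 and 3.23 FPKM in PDGF-NS, 7.54, 10.6 and 8.97 FPKM in IGF-NS, and 1.89, 1.85 and 1.83 FPKM in control. The 3 sets did not overlap, but PDGF-NS library 1 lay nearer to the IGF-NS libraries than to the other PDGF-NS libraries. PDGF-NS averaged 4.33 ± 2.18 FPKM, IGF-NS 9.05 ± 1.55 FPKM and control 1.86 ± 0.027 FPKM (SD, n = 3 each). The difference of PDGF-NS against control was 0.83 ± 0.25, and 0.51 without PDGF-NS library 1. The difference of IGF-NS against control was 1.80 ± 0.25, and that of PDGF-NS against IGF-NS was -0.98 ± 0.25.

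Sfrp1 (ENSRNOG00000017783), another secreted decoy of the family, was listed at 0.196 FPKM in PDGF-NS library 1 and at 0 in the other 8 libraries. That library was also the highest of its set for Sfrp2, Sfrp4 and Frzb. Summed over the 4 sFRP genes, the level was 21.6 ± 6.29 FPKM in PDGF-NS, 74.9 ± 3.16 FPKM in IGF-NS and 10.3 ± 2.44 FPKM in control (SD, n = 3 each). The sums ranged over 17.6 to 28.9 FPKM in PDGF-NS, 72.7 to 78.5 FPKM in IGF-NS and 7.52 to 12.0 FPKM in control, with no overlap.

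The makeup of the sum differed too. Sfrp4 made up 61.7 ± 6.15% of it in PDGF-NS, 36.0 ± 3.18% in IGF-NS and 43.6 ± 1.31% in control (SD, n = 3 each). Sfrp2 made up 18.8 ± 2.11% in PDGF-NS, 52.0 ± 5.32% in IGF-NS and 37.6 ± 3.57% in control. Frzb made up 19.3 ± 3.85% in PDGF-NS, 12.1 ± 2.14% in IGF-NS and 18.8 ± 4.88% in control. The share of Sfrp2 was thus lower in PDGF-NS than in control although its level overlapped, with Sfrp4 and Frzb higher there.

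**Figure D1:**
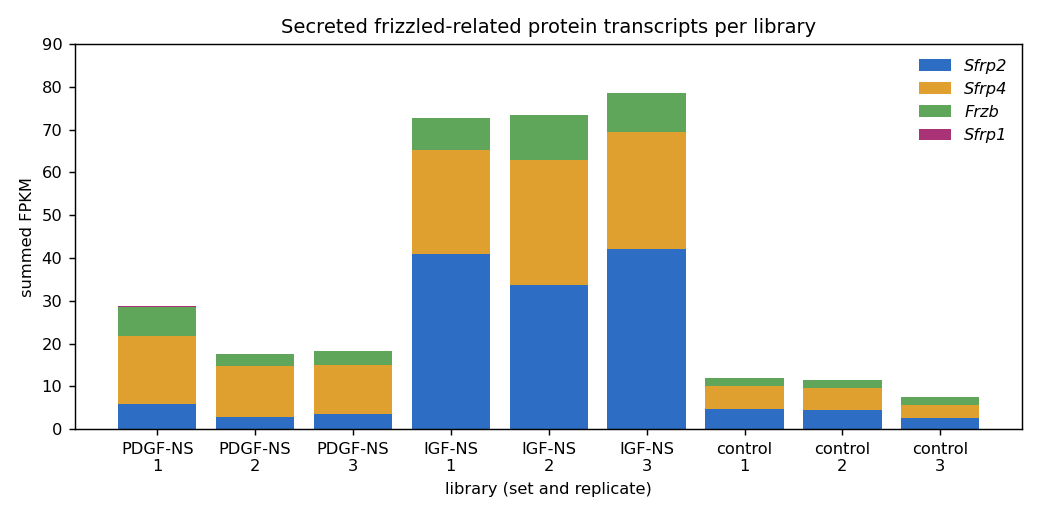
Summed FPKM of the secreted frizzled-related protein genes in each library, with the part of each gene stacked in colour. The IGF-NS libraries reach 72.7 to 78.5 FPKM with Sfrp2 as the largest part, the PDGF-NS libraries 17.6 to 28.9 FPKM with Sfrp4 as the largest part, and the control libraries 7.52 to 12.0 FPKM.

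Among the other secreted antagonists of the set, Dkk3 stood out in PDGF-NS, Wif1 was also highest there by a small margin and Dkk2 was listed at 0. PDGF-NS is not the set in which the sFRPs were highest.

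Dkk3 (ENSRNOG00000016343) encodes the most divergent Dickkopf protein, which, unlike Dkk1 and Dkk2, is not known mainly as a co-receptor antagonist. It had 4.11, 2.53 and 5.89 FPKM in PDGF-NS, 0.519, 0.916 and 0.676 FPKM in IGF-NS, and 0.337, 0.791 and 0.218 FPKM in control. All 3 PDGF-NS libraries lay above the other 6, which overlapped. PDGF-NS averaged 4.18 ± 1.68 FPKM, IGF-NS 0.704 ± 0.200 FPKM and control 0.449 ± 0.303 FPKM (SD, n = 3 each). The PDGF-NS mean was 9.30 times the control mean and 5.94 times the IGF-NS mean. On the log2 scale the differences were 1.80 ± 0.27 against control and 1.56 ± 0.27 against IGF-NS. The size of the first depends on the pseudocount, and it was 3.02 with a pseudocount of 0.1 in place of 1. IGF-NS against control gave 0.25 ± 0.27, within its error.

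Wif1 (ENSRNOG00000004476), Wnt inhibitory factor 1, had 2.87, 3.33 and 3.20 FPKM in PDGF-NS, 2.56, 1.28 and 2.44 FPKM in IGF-NS, and 1.97, 2.01 and 0.971 FPKM in control. The PDGF-NS libraries lay above all 6 others, by a small margin, and the IGF-NS and control libraries overlapped. PDGF-NS averaged 3.13 ± 0.237 FPKM, IGF-NS 2.09 ± 0.706 FPKM and control 1.65 ± 0.590 FPKM (SD, n = 3 each). The PDGF-NS mean was 1.90 times the control mean and 1.49 times the IGF-NS mean. The difference was 0.66 ± 0.23 in PDGF-NS against control, 0.22 ± 0.23 in IGF-NS against control and 0.44 ± 0.23 in PDGF-NS against IGF-NS. Dkk2 (ENSRNOG00000011360), which binds the Lrp5 and Lrp6 co-receptors, was listed at 0 in every library. Across all genes, 10199 were listed at 0 in every library, and 31 with a median over 5 FPKM were listed at 0 in at least 1 library. Whether a listed 0 is a failed estimate or an absent transcript cannot be told from these values.

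**Figure D2:**
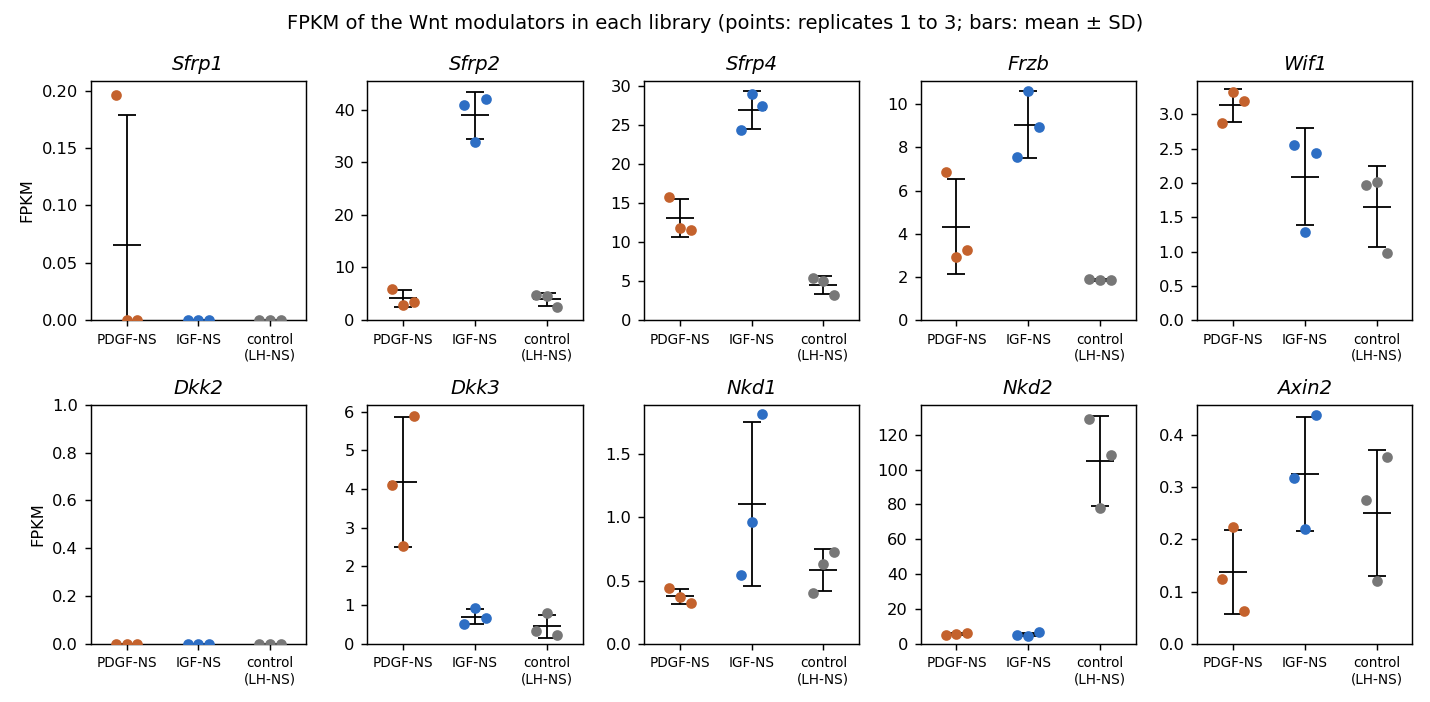
FPKM of each of the 10 genes in the 9 libraries, 1 panel per gene with its own axis, points for libraries and bars for the mean ± SD of each set (n = 3). Sfrp2 stands apart in IGF-NS (33.8 to 42.1 FPKM), Dkk3 in PDGF-NS (2.53 to 5.89 FPKM) and Nkd2 in control (77.7 to 129 FPKM).

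Inside the cell, Nkd2 had the largest difference of all 10 genes and the only one with control far above both growth factor sets. Nkd1 and Axin2 were low in every library. The 2 Naked cuticle genes thus differed in level and in pattern.

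Nkd2 (ENSRNOG00000016103) encodes a Dishevelled-binding protein that also takes part in the delivery of secretory vesicles in epithelial cells. It had 5.20, 5.42 and 5.93 FPKM in PDGF-NS, 4.90, 4.70 and 6.56 FPKM in IGF-NS, and 129, 77.7 and 108 FPKM in control. Every control library lay at least 10 times above every growth factor library, and the growth factor sets overlapped. PDGF-NS averaged 5.52 ± 0.373 FPKM, IGF-NS 5.38 ± 1.02 FPKM and control 105 ± 25.9 FPKM (SD, n = 3 each). The PDGF-NS mean was 0.0525 times the control mean and the IGF-NS mean 0.0512 times. The log2 differences were -4.00 ± 0.19 in PDGF-NS against control and -4.04 ± 0.19 in IGF-NS against control. PDGF-NS against IGF-NS gave 0.04 ± 0.19, within its error, with values from -0.07 to 0.17 over the alternatives. In control 91.9% of the tested genes lay below Nkd2, against 26.2% in PDGF-NS and 24.9% in IGF-NS.

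Nkd1 (ENSRNOG00000014293), the paralog of Nkd2, had 0.437, 0.369 and 0.320 FPKM in PDGF-NS, 0.543, 0.962 and 1.82 FPKM in IGF-NS, and 0.400, 0.631 and 0.723 FPKM in control. The PDGF-NS libraries lay below all IGF-NS libraries, and both growth factor sets overlapped control. In a fit without the filter the difference was -0.20 ± 0.20 in PDGF-NS against control, 0.37 ± 0.20 in IGF-NS against control and -0.57 ± 0.20 in PDGF-NS against IGF-NS.

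Axin2 (ENSRNOG00000003612) had 0.125, 0.223 and 0.0630 FPKM in PDGF-NS, 0.318, 0.219 and 0.439 FPKM in IGF-NS, and 0.276, 0.119 and 0.357 FPKM in control. The 3 sets overlapped. Its differences without the filter were -0.14 ± 0.09 in PDGF-NS against control, 0.08 ± 0.09 in IGF-NS against control and -0.22 ± 0.09 in PDGF-NS against IGF-NS. The genes whose promoter windows above held TCF and LEF letters were thus those at the lowest levels among the 6 with a window, which says nothing about binding.

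**Figure D3:**
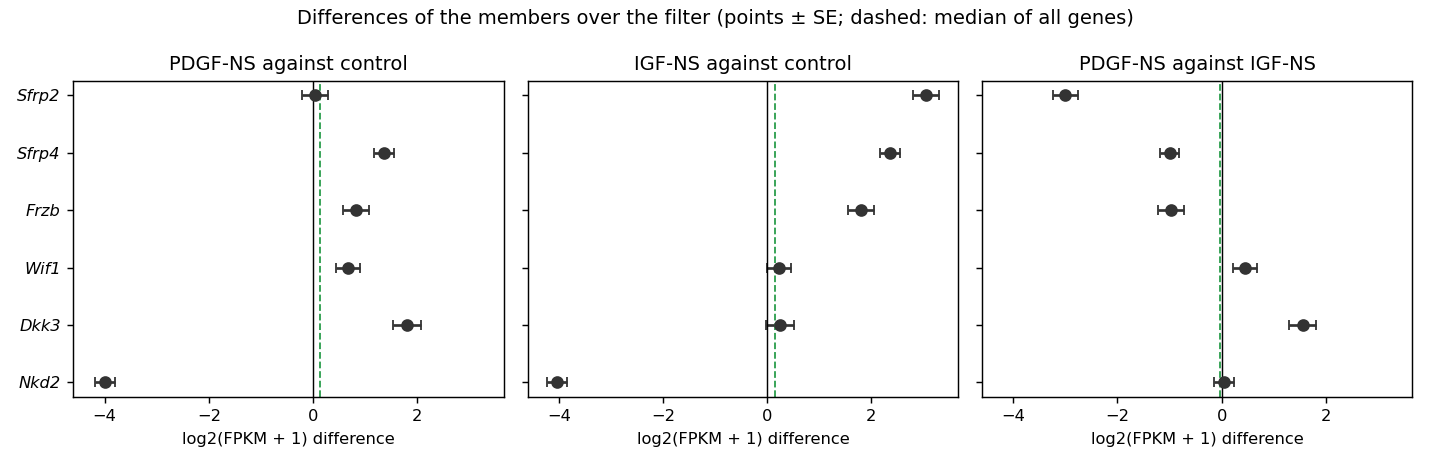
Log2 difference of FPKM + 1 of each tested gene, with its standard error as the bar and the median of all tested genes as a dashed line, in PDGF-NS against control, IGF-NS against control and PDGF-NS against IGF-NS. Nkd2 lies near -4 in both contrasts with control and near 0 between the growth factor sets, Sfrp2 lies near 3 in IGF-NS against control and near -3 between the growth factor sets, and Dkk3 is on the positive side in both contrasts of PDGF-NS.

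Only as a background for the values above, the calls of the fit were counted, where a call means an adjusted p under 0.05 by limma with Benjamini-Hochberg adjustment over all tested genes. In PDGF-NS against control, 3 of the 6 modulators over the filter were on the higher side of the threshold and 1 on the lower, beside 20.7% and 10.2% of all tested genes. With median ratio scaling, quantile normalization or a common sum 2 were higher, since Frzb was then not called. In IGF-NS against control, 3 were higher and 1 lower, beside 17.4% and 7.48% of all tested genes. In PDGF-NS against IGF-NS, 1 was higher and 3 lower, beside 8.33% and 7.55% of all tested genes. These contrasts chose the genes, and Dkk3 passed the filter only through the set in which it was high, so the counts are no test of the members and nothing is read from them. The 2 contrasts with control share the control libraries.

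Other genes most alike to each tested modulator over the 9 libraries were found among 8222 genes by Pearson's r of log2 values, which here mostly follows the set means. For Sfrp2 these were Sdpr (also called Cavin2, a component of caveolae, r = 0.996) and Ncoa1 (r = 0.987). Sdpr averaged 21.1 FPKM in PDGF-NS, 76.4 FPKM in IGF-NS and 19.1 FPKM in control. For Sfrp4 they were Add3, an adducin of the membrane skeleton, and Dlg2, a scaffold protein, at r = 0.987 each. For Nkd2 they were the LIM domain genes Pdlim1 and Lims2 at r = 0.993 each. Pdlim1 averaged 133 FPKM in PDGF-NS, 117 FPKM in IGF-NS and 696 FPKM in control. For Dkk3 they were Camk2d (r = 0.977) and Atp6v1b2 (r = 0.976), for Frzb Rab32 (r = 0.978) and Spast (r = 0.974), and for Wif1 Mroh1 (r = 0.969) and Atg7 (r = 0.968).

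Genes of the pathway outside the set were taken from 8 lists of 106 symbols, of which 104 were matched, at 107 identifiers, and 64 identifiers were tested. In PDGF-NS against control 9 were higher and 13 lower, a share of 34.4% against 31.0% of all tested genes. The median difference was -0.14, against 0.13 over all tested genes. With median ratio scaling, quantile normalization or a common sum the split was 6 higher and 21 lower, so that the balance depends on the scaling. In IGF-NS against control 13 were higher and 6 lower, a share of 29.7% against 24.9%, with medians of 0.08 and 0.15. With median ratio scaling that split was 10 higher and 8 lower. In PDGF-NS against IGF-NS 3 were higher and 16 lower, a share of 29.7% against 15.9%, with medians of -0.24 and -0.02. The splits of all called genes also moved, with 66.9% of calls higher in PDGF-NS against control, and 51.0%, 49.4% and 50.3% under the 3 scalings. In IGF-NS against control 69.9% of calls were higher, and 48.4%, 51.2% and 68.2% under the same scalings. In PDGF-NS against IGF-NS 52.5% of calls were higher, and 56.1%, 50.7% and 33.2% under them. The adjusted p-values that follow come from limma and were corrected by Benjamini-Hochberg across 11376 genes.

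Of the Wnt ligands and their export, 3 of 21 genes were tested, and Wnt5a was the 1 gene called. Wnt5a, mainly a ligand of the branches without beta-catenin, averaged 5.13 FPKM in PDGF-NS, 1.40 FPKM in IGF-NS and 1.14 FPKM in control. It was higher in PDGF-NS against control (log2 difference 1.48 ± 0.21, adjusted p = 0.00063) and against IGF-NS (1.32 ± 0.21, adjusted p = 0.0023). Wls, which carries Wnt proteins to the cell surface, averaged 72.3 FPKM in PDGF-NS, 83.4 FPKM in IGF-NS and 78.8 FPKM in control and was not called in any contrast, and neither was Wnt9a.

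Of the other antagonists outside the 10 genes, 3 of 14 were tested, with 1 lower in PDGF-NS against control, 0 called in IGF-NS against control and 2 lower in PDGF-NS against IGF-NS. Apcdd1, a membrane inhibitor of Wnt signalling, averaged 1.94 FPKM in PDGF-NS, 6.14 FPKM in IGF-NS and 10.3 FPKM in control. It was lower in PDGF-NS against control (-1.88 ± 0.28, adjusted p = 0.00073) and against IGF-NS (-1.27 ± 0.28, adjusted p = 0.012), the second with an adjusted p of 0.055 without PDGF-NS library 3. Trabd2b (also Tiki2, a protease that inactivates Wnt proteins) averaged 63.3 FPKM in PDGF-NS, 121 FPKM in IGF-NS and 72.7 FPKM in control, and its difference between the growth factor sets had an adjusted p of 0.031. That p was 0.10 without PDGF-NS library 1 or 3, and 0.071 without IGF-NS library 3. Kremen1, a receptor of Dickkopf proteins, averaged 9.72 FPKM in PDGF-NS, 9.51 FPKM in IGF-NS and 9.73 FPKM in control and was not called.

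Of the receptors 12 of 15 were tested, with 2 higher and 5 lower in PDGF-NS against control, 4 higher and 2 lower in IGF-NS against control, and 0 higher and 4 lower in PDGF-NS against IGF-NS. Fzd7, a Frizzled receptor, averaged 23.2 FPKM in PDGF-NS, 30.2 FPKM in IGF-NS and 68.2 FPKM in control, lower in both sets than in control (-1.52 ± 0.21, adjusted p = 0.00056, and -1.16 ± 0.21, adjusted p = 0.0042). Ror1, a receptor for Wnt5a, averaged 16.3 FPKM in PDGF-NS, 47.2 FPKM in IGF-NS and 20.7 FPKM in control. It was higher in IGF-NS against control (1.16 ± 0.13, adjusted p = 0.00025) and lower in PDGF-NS against IGF-NS (-1.49 ± 0.13, adjusted p = 5.3e-05). Fzd3, another Frizzled receptor, was higher in PDGF-NS against control (1.08 ± 0.16, adjusted p = 0.00072) and in IGF-NS against control (0.74 ± 0.16, adjusted p = 0.0086), at 13.0 FPKM in PDGF-NS, 9.96 FPKM in IGF-NS and 5.61 FPKM in control. The R-spondin list had 3 tested genes of 9, with 1 higher and 1 lower in PDGF-NS against control, 1 higher in IGF-NS against control and 1 lower in PDGF-NS against IGF-NS. Rspo1, a secreted amplifier of Wnt signals, averaged 5.81 FPKM in PDGF-NS, 12.1 FPKM in IGF-NS and 14.6 FPKM in control and was lower in PDGF-NS against control (-1.21 ± 0.17, adjusted p = 0.00054).

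Further down the pathway, the Dishevelled and destruction complex list held 17 tested genes, of which 0 were higher and 2 lower in PDGF-NS against control 0 higher and 1 lower in IGF-NS against control, and 0 higher and 2 lower in PDGF-NS against IGF-NS. Dvl3, a Dishevelled protein, averaged 25.5 FPKM in PDGF-NS, 40.1 FPKM in IGF-NS and 42.1 FPKM in control. It was lower in PDGF-NS against control (-0.70 ± 0.16, adjusted p = 0.0084) and against IGF-NS (-0.62 ± 0.16, adjusted p = 0.026). The second adjusted p was 0.051 to 0.093 when 1 PDGF-NS library was left out, 0.074 without IGF-NS library 1 and 0.070 without IGF-NS library 3. Dvl1, another Dishevelled protein, was called lower in PDGF-NS and in IGF-NS against control (3.83 FPKM in PDGF-NS, 3.21 FPKM in IGF-NS and 6.37 FPKM in control). Its adjusted p in PDGF-NS against control was 0.038, and 0.083 to 0.099 when 1 PDGF-NS library was left out, 0.11 without control library 1 and 0.057 without control library 2. In IGF-NS against control it was 0.012, and 0.052 without IGF-NS library 1. Of the TCF, LEF and cofactor list 14 genes were tested, with 2 higher and 1 lower in PDGF-NS against control, 4 higher and 0 lower in IGF-NS against control, and 0 higher and 2 lower in PDGF-NS against IGF-NS. Tcf7, a nuclear partner of beta-catenin, was higher in PDGF-NS (0.86 ± 0.16, adjusted p = 0.003) and IGF-NS (1.16 ± 0.16, adjusted p = 0.001) against control, at 6.17 FPKM in PDGF-NS, 7.69 FPKM in IGF-NS and 2.89 FPKM in control. Of 6 further targets 4 were tested, with 2 higher and 2 lower in PDGF-NS against control, 0 higher and 3 lower in IGF-NS against control, and 2 higher and 2 lower in PDGF-NS against IGF-NS. Myc, a growth regulator with many inputs, was lower in PDGF-NS against control (-2.08 ± 0.16, adjusted p = 1.5e-05), at 18.8 FPKM in PDGF-NS, 61.1 FPKM in IGF-NS and 84.2 FPKM in control. Wisp1, a secreted matricellular protein, was lower in PDGF-NS (-1.66 ± 0.18, adjusted p = 0.00012) and in IGF-NS (-0.92 ± 0.18, adjusted p = 0.0057) against control, at 97.8 FPKM in PDGF-NS, 168 FPKM in IGF-NS and 312 FPKM in control. The 2 higher in PDGF-NS than in control were Ccnd1 (127 against 85.4 FPKM) and Cd44 (75.0 against 30.1 FPKM). Both were lower in IGF-NS against control, Ccnd1 at -0.97 ± 0.18 (adjusted p = 0.0043) and Cd44 at -1.02 ± 0.21 (adjusted p = 0.007). The planar polarity list had 8 tested genes, with 1 higher and 1 lower in PDGF-NS against control, 4 higher and 0 lower in IGF-NS against control, and 0 higher and 3 lower in PDGF-NS against IGF-NS. Prickle2, of this list, was higher in both sets against control (0.81 ± 0.12, adjusted p = 0.00074, and 0.88 ± 0.12, adjusted p = 0.00086).

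**Figure D4:**
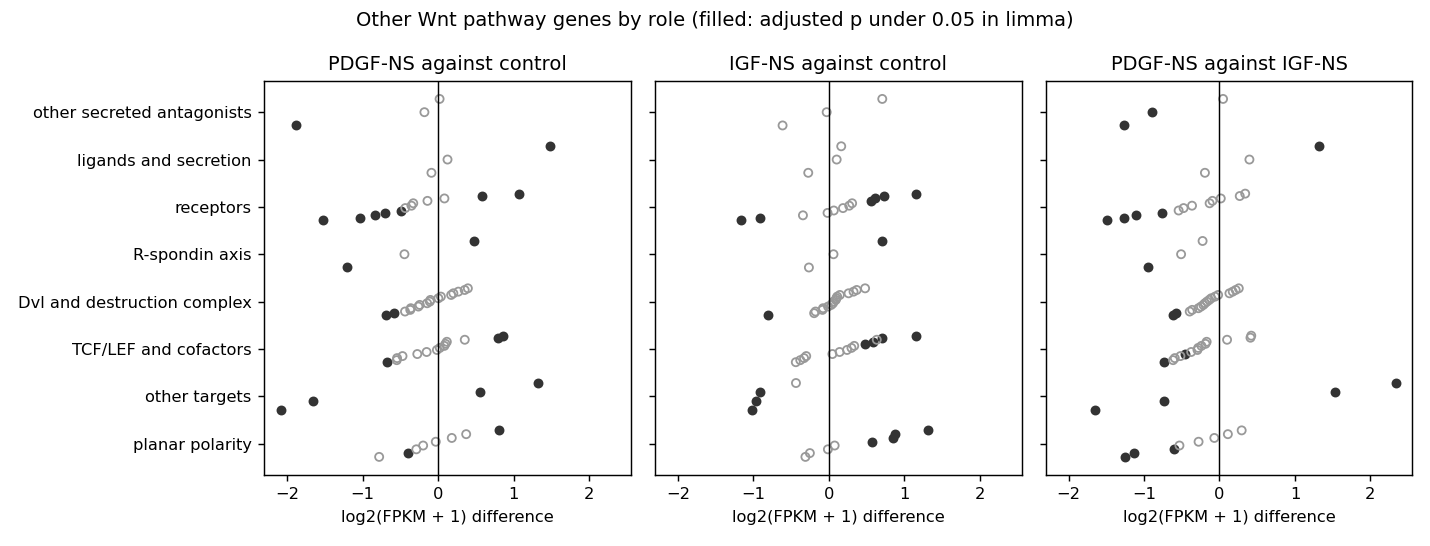
Log2 difference of FPKM + 1 of the tested Wnt pathway genes outside the 10 modulators, 1 row per list and 1 panel per contrast, with called genes filled. Genes called in PDGF-NS against IGF-NS lie mostly on the negative side (3 higher and 16 lower).

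Markers of the labelled cell type and of some other cell types moved with the sets. Summed over 7 smooth muscle markers the level was 281 to 350 FPKM in PDGF-NS, 498 to 524 FPKM in IGF-NS and 2311 to 3298 FPKM in control, so that Nkd2 was high where the sum was high. Most of the sum was Tagln, an actin-binding protein of smooth muscle, which averaged 211 FPKM in PDGF-NS, 358 FPKM in IGF-NS and 2105 FPKM in control. Myh11, also on this list, lay under the filter, at 0.654 FPKM in PDGF-NS, 0.405 FPKM in IGF-NS and 1.77 FPKM in control. Of the 6 tested smooth muscle markers, 1 was higher and 5 lower in PDGF-NS against control, and 0 were higher and 5 lower in IGF-NS against control. The higher one was Des, the muscle intermediate filament gene, at 5.18 FPKM in PDGF-NS, 0.301 FPKM in IGF-NS and 1.51 FPKM in control (PDGF-NS against control, adjusted p = 0.00036). Summed over 8 fibroblast markers, of which 7 were tested, the level was 907 to 1385 FPKM in PDGF-NS, 1950 to 2061 FPKM in IGF-NS and 373 to 490 FPKM in control. The sums stood in the same order as the sFRP sums. Most of them was Lum, the proteoglycan lumican, which averaged 1064 FPKM in PDGF-NS, 1795 FPKM in IGF-NS and 340 FPKM in control. Of the 7 tested, 5 were higher and 1 lower in PDGF-NS against control, 4 higher and 1 lower in IGF-NS against control, and 2 higher and 3 lower in PDGF-NS against IGF-NS. The markers thus did not share the order of the sum. Dcn, a small matrix proteoglycan, averaged 21.8 FPKM in PDGF-NS, 117 FPKM in IGF-NS and 11.4 FPKM in control, and Dpt, another matrix protein, averaged 14.0 FPKM in PDGF-NS, 2.26 FPKM in IGF-NS and 0.417 FPKM in control. Tcf21, which marks fibroblast precursors, was listed at 0 in every library. The 7 endothelial markers summed to at most 0.788 FPKM in any library, with Cdh5, Kdr and Emcn listed at 0. Of 5 macrophage markers 2 were tested, Cd14 and Cd68, and both were called higher in PDGF-NS against control and against IGF-NS. The lineage markers Ptprc and Adgre1 were listed at 0. Cd14 averaged 59.7 FPKM in PDGF-NS, 26.3 FPKM in IGF-NS and 23.5 FPKM in control. Cd68 averaged 4.30 FPKM in PDGF-NS, 0.340 FPKM in IGF-NS and 0.208 FPKM in control. It passed the filter only through PDGF-NS, with 9.37, 1.39 and 2.13 FPKM in libraries 1, 2 and 3 of that set. The summed level of the macrophage list was 43.6 to 89.5 FPKM in PDGF-NS, 22.6 to 30.8 FPKM in IGF-NS and 17.6 to 27.0 FPKM in control, highest in the set where Dkk3 was. Most of this sum was Cd14 in every set, and Csf1r, also on the list, reached at most 0.143 FPKM in any library. Of 6 cardiomyocyte markers 1 was tested, Tnnt2 (cardiac troponin T). It averaged 2.68 FPKM in PDGF-NS, 12.0 FPKM in IGF-NS and 15.0 FPKM in control, lower in PDGF-NS against control (adjusted p = 0.0026). Myh6 was listed at 0 in every library. Ryr2 reached at most 0.133 FPKM, Tnni3 0.691 FPKM, Nppa 0.977 FPKM and Actn2 1.52 FPKM in any library. Of 5 pericyte markers 3 were tested, and 1 was called, Abcc9 (a potassium channel subunit). It averaged 139 FPKM in PDGF-NS, 57.5 FPKM in IGF-NS and 54.0 FPKM in control, higher in PDGF-NS against control (adjusted p = 8.3e-05). Pdgfrb and Kcnj8 were not called in any contrast. Pdgfrb averaged 328 FPKM in PDGF-NS, 462 FPKM in IGF-NS and 434 FPKM in control, with all PDGF-NS libraries below control. Kcnj8 averaged 14.5 FPKM in PDGF-NS, 29.5 FPKM in IGF-NS and 16.1 FPKM in control. Rgs5 was listed at 0 in every library, and Cspg4 reached at most 0.266 FPKM in any library. The pericyte sums overlapped, at 465 to 510 FPKM in PDGF-NS, 466 to 604 FPKM in IGF-NS and 417 to 636 FPKM in control. Of 4 Schwann cell markers 0 were tested. The part of any of these in the differences of the modulators was not tested, and in bulk RNA fewer cells of a type and less RNA per cell cannot be told apart.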

How the data were processed

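Per the labels' protocols, Trizol RNA went into Lexogen SENSE mRNA v2 libraries. GSNAP and Cufflinks are named in the submitters' processing notes. For their versions, the genome build and the annotation the sources used here give nothing. What the authors deposited is FPKM for each gene in each library. Since these are not counts, a count model was not used, and the depth is unknown. Low values gave a relative depth of 0.95 to 1.33 in PDGF-NS, 0.72 to 1.16 in IGF-NS and 0.66 to 1 in control (control library 1 set to 1).

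The table held 26407 rows. Left out were 4 genes with a cell of 999999999, which was taken as a failed estimate, and 2 duplicate rows of 0. Libraries were assigned by the column each record names.

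Limma 3.58.1 in R 4.3.3 (limma-trend) was fitted to log2(FPKM + 1) of 11376 genes whose mean reached 1 FPKM, on all 9 libraries with the set as the only term, for 3 two-sided contrasts. P-values were adjusted by Benjamini-Hochberg over all tested genes, with calls at 0.05. The steps were also run on simulated data drawn at the fitted means and spreads. There the assumptions of the fit hold by design, so that run checks the steps and not the calls in these libraries. Alternatives were pseudocounts of 0.1 and 0.5, no filter or a mean of at least 5 FPKM, 3 scalings, a replicate block and leaving out each library.

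The members, the pathway and marker lists and the contrasts were chosen with earlier results of these data known. Pathway genes were picked by rule, at most 2 per list and contrast, from those called with at least 5 FPKM in the higher set. Those with the largest log2 difference in either direction were taken, and the text names only some of them. Further genes named in the text were chosen after their values were seen, as were the promoter letters.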

Additional observations from a re-analysis of the deposited data

Results flagged for a closer look

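A pathway gene was picked out where all its PDGF-NS libraries and all its IGF-NS libraries lay on opposite sides of all control libraries. No member of the 10 modulators did so. A pathway gene over the filter also needed an adjusted p under 0.05 by limma in PDGF-NS against IGF-NS. Values are PDGF-NS minus IGF-NS on the log2(FPKM + 1) scale. The pick fixes their sign and the separation of the libraries, so they are given as a description, without a test.

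Fzd1, a Frizzled receptor, gave -1.27 ± 0.15 (SE), at 48.7 FPKM in PDGF-NS, 119 FPKM in IGF-NS and 80.3 FPKM in control. Ror1, a Wnt5a receptor, gave -1.49 ± 0.13. Prickle1, of the planar polarity branch, gave -1.26 ± 0.12, at 28.9 FPKM in PDGF-NS, 70.3 FPKM in IGF-NS and 38.5 FPKM in control. Ccnd1, which encodes cyclin D1, gave 1.52 ± 0.18, at 127 FPKM in PDGF-NS, 43.7 FPKM in IGF-NS and 85.4 FPKM in control. Cd44, a hyaluronan receptor, gave 2.34 ± 0.21, at 75.0 FPKM in PDGF-NS, 14.1 FPKM in IGF-NS and 30.1 FPKM in control. Fzd9, another Frizzled receptor, gave 1.40 at 1.74 FPKM in PDGF-NS, 0.0303 FPKM in IGF-NS and 0.194 FPKM in control. It lay under the filter.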

How the results depend on the processing

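Over 300 repeats of the 18 member differences 294 stayed within the replicate spread, 6 moved and 0 reversed a called value. The 6 were differences of Dkk3 and Frzb with a smaller pseudocount. Of the 18, 16 kept their sign throughout, the exceptions being Sfrp2 in PDGF-NS against control and Nkd2 between the growth factor sets. Calls of Frzb were less stable than its sign. In PDGF-NS against control it was not called without the filter, under the 3 scalings or with the replicate block. The same held without PDGF-NS library 1 and without any 1 control library. In PDGF-NS against IGF-NS Frzb lost its call without PDGF-NS library 2 or 3 and without IGF-NS library 2 or 3. Wif1 was called in PDGF-NS against control only without IGF-NS library 2. Over 642 repeats of the 38 named pathway results 585 kept their call and 57 lost it, with 0 reversed.

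Leaving out 1 library gave 2360 to 3757 genes called in PDGF-NS against control (3521 with all), 1752 to 2957 in IGF-NS against control (2827 with all) and 1009 to 2152 in PDGF-NS against IGF-NS (1807 with all). The lowest came without IGF-NS library 1 (1752), and without PDGF-NS libraries 2 (1193) and 3 (1009). The pathway counts ranged over 16 to 24 (22 with all), 13 to 21 (19 with all) and 12 to 22 (19 with all), the 12 without PDGF-NS library 3. The cause was not tested. A set left with 2 libraries is assumed to vary like the others.

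Libraries with the same replicate number did not deviate together (correlations -0.28 to 0.25, 2 of 9 over 0.1), so the numbers were not read as pairs. With a replicate block 3221, 2457 and 1530 genes and 18, 17 and 16 pathway genes were called in the same order of contrasts. The unknown depth limits Nkd1, Axin2, Sfrp1 and Dkk2 most.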
